A study of Mus musculus with 6 samples.

Results

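The regions described here are the GC-poor promoters of protein-coding genes in mouse skeletal muscle, as seen by ATAC-seq, which inserts sequencing adapters with the Tn5 transposase and so counts cuts in accessible chromatin. A member is an interval of the deposited count table whose nearest edge lies within 1 kb of the transcription start site (TSS) of a protein-coding gene, whose GC content (the share of G and C bases) is under 50% in the 200 bp around its midpoint, and which is not within 500 bp of start sites of different genes on both strands. Of 39768 intervals, 875 (2.20%) met the rule, near 766 genes. They were set beside 16398 GC-rich promoter intervals, chosen the same way with a GC content of 50% or more. They were also set beside 5684 GC-poor intervals over 1 kb from the start of any annotated transcript, protein-coding or not, called distal here.

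Nuclei came from muscle of 7-week-old C57BL/6 mice (C57BL/6N in the study's methods), with 50000 nuclei per library and 3 libraries in each of 2 groups. Control (CTL) mice carried floxed alleles of both H2A.Z genes (H2A.Z-1 flox/flox and H2A.Z-2 flox/flox) and no Cre. H2A.Z dKO mice carried the same alleles and HSA-Cre, whose human skeletal actin promoter expresses the recombinase in post-mitotic muscle fibres, so nuclei of other cell types keep H2A.Z. The comparison asks whether promoter accessibility in muscle depends on this histone variant. The labels do not say whether the libraries of a group came from separate animals, so p-values measure the spread between these libraries, which may be technical. In such bulk material, less accessible DNA per nucleus and fewer nuclei of a type cannot be told apart.

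Mammalian promoters are often divided by base composition. GC-rich promoters usually overlap CpG islands, lack a TATA box and serve broadly expressed genes. GC-poor promoters more often serve tissue-specific genes, and some start transcription from a TATA box, which binds the TATA-binding protein shortly upstream of the start. Other short elements recur in promoters. The CCAAT box, which reads ATTGG on the other strand, is bound by the factor NF-Y. The MEF2 factors, which act at many muscle genes, read a core that begins with CTA and ends with TAG, with any 4 bases between them.

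The sequences below show what the members look like. All were read from the mm9 genome and are written 5′ to 3′ on the strand of the gene, in lower case, with TATAAA and either strand's letters of the CCAAT box and the MEF2 core in capitals. None overlaps an annotated exon. A match is a run of letters, not a bound site. First, 100 bases at the centre of the intervals of Cic (chr7:26053100-26053199, plus strand) and Gpr108 (chr17:57387230-57387329, minus strand) are shown because these intervals had the highest and second highest signal of the members with deep counts.
Cic: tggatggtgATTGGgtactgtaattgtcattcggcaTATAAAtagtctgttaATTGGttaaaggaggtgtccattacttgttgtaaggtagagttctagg
Gpr108: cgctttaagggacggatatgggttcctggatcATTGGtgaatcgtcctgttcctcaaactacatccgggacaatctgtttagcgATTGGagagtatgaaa
Next are sequences of muscle genes, shown because a larger share of genes in lists of muscle genes than of all genes had a member. Asb5 is in none of these lists and is shown for its TATAAA close to the start. The last 100 bases before the start site are given for Myf6 (chr10:106931786-106931885, minus strand), Xirp2 (chr2:67283959-67284058, plus strand) and Asb5 (chr8:55635584-55635683, plus strand), and 100 bases at the centre of the interval, more than 500 bp upstream, for Ckmt2 (chr13:92017037-92017136, minus strand).
Myf6: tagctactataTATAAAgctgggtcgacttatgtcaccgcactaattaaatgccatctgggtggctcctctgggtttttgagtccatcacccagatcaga
Xirp2: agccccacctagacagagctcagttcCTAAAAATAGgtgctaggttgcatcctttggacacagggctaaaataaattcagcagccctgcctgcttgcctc
Asb5: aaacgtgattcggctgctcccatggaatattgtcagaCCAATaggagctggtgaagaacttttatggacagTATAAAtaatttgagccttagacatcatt
Ckmt2: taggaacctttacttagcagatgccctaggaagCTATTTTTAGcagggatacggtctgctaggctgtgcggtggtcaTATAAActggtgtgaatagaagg
The 100 bases before the start of the histone H3 gene Hist1h3a (chr13:23854256-23854355, minus strand) hold 2 CCAAT boxes and TATAAA set inside a MEF2 core. The interval of Mrpl3 (chr9:104955473-104955538, plus strand) is shown whole because it is among the 3 members with the smallest p in the direction of lower counts in the libraries labelled H2A.Z dKO.
Hist1h3a: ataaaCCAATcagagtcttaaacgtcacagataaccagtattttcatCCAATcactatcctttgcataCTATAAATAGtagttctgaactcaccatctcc
Mrpl3: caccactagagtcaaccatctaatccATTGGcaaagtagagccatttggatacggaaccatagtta
Last are 90 aligned bases from 3 of the near-identical promoters of a zinc-finger gene cluster on chromosome 2, near Zfp931 (chr2:177813209-177813298, minus strand), Gm14440 (chr2:175100469-175100558, plus strand) and Gm14325 (chr2:177575088-177575177, minus strand), shown because 21 members are copies of this sequence. Gm14440 has the most common form. It differs from Zfp931 at 3 bases and Gm14325 differs at 4.
Zfp931: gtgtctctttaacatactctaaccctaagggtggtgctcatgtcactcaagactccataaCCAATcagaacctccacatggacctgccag
Gm14440: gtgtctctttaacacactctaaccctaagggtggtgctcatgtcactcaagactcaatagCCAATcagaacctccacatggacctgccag
Gm14325: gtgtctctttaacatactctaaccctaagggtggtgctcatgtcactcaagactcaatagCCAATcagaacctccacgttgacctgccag

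Library totals ran from 3520008 to 6117245 counts, and no pair of libraries agreed within sampling noise. Exons 2 to 4 of H2afz, which codes for H2A.Z-1 and is flanked by the loxP sites, lie at chr3:137528097-137529104 and held 2 intervals, whose counts were 79, 69 and 33 in CTL and 57, 52 and 64 in H2A.Z dKO, so that the groups overlapped. The floxed exons 4 to 5 of H2afv, the H2A.Z-2 gene (chr11:6327229-6329228), held no interval. Accessible DNA over these loci therefore does not separate the labels, and the groups are named as labelled. The study checked the loss of H2A.Z by other assays, on RNA and protein, which are not analysed here. As a check of the tissue, 107 of the 155 genes in 4 lists of muscle genes had a promoter interval, against 16 of 26 fibroblast and matrix genes, 8 of 22 endothelial genes, 5 of 11 smooth muscle and pericyte genes, 3 of 9 satellite cell genes, 1 of 7 Schwann cell genes, 1 of 28 leukocyte genes and none of the 7 adipocyte or the 7 erythroid genes. Replicate 1 of H2A.Z dKO stood apart by base composition and is followed through the results below.

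GC-poor promoters were a small and narrow class. Of 8879 genes with any promoter interval, 8.63% had a member. Among the 766 genes, 574 (74.9%) also had a GC-rich promoter interval and 192 (25.1%) had GC-poor intervals only, while 97 genes had more than 1 member and none had more than 4. The members had a median width of 73 bp (range 9 to 700), against 204 bp for GC-rich promoters and 61 bp for GC-poor distal intervals. Their median GC content was 47.0% and only 42 were under 40%, so most lay close to the threshold. CpG dinucleotides, counted over the number expected from base composition, had a median of 0.436 in the members, 0.820 in GC-rich promoters and 0.218 in distal GC-poor intervals. Just under the threshold, 76 members had a GC content of 49.5%. Just over it, 100 intervals were at 50.0%, among them Dnajc18, which codes for a DnaJ-family protein (41, 40 and 23 counts in CTL, 41, 29 and 39 in H2A.Z dKO).

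Most members did not cover a start site. Only 173 (19.8%) overlapped a TSS, against 52.2% of GC-rich promoters. A further 518 (59.2%) lay upstream and 184 (21.0%) downstream. In the 100 bp just before the start lay 18.1% of member midpoints and 32.2% of GC-rich ones. In each of the next 3 windows of 100 bp upstream the members kept 11.1% to 11.5% of their midpoints.

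**Figure D1:**
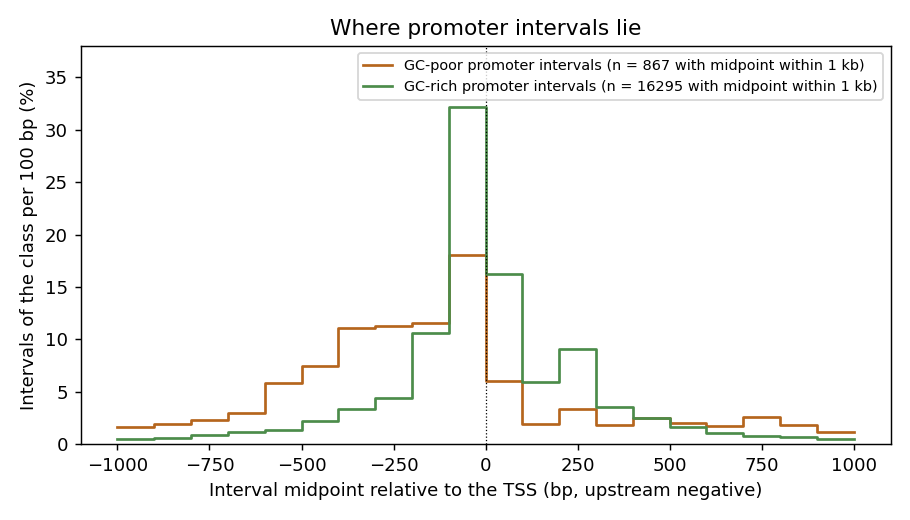
Percentage of intervals per 100 bp (y axis) against the distance of the interval midpoint from the TSS in bp (x axis), for GC-poor and GC-rich promoter intervals. Both classes peak in the 100 bp upstream of the start, at 18.1% and 32.2%, and the GC-poor class is spread farther upstream.

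The DNA around these start sites was often GC-rich even where the interval was not. In the 1000 bp centred on the TSS, GC content had a median of 52.9% for the members (range 33.9% to 77.1%) and 60.8% for GC-rich promoters. It was under 50% for 300 members (34.3%). These 300 were wider (median 93.5 bp against 62.0 bp), overlapped the TSS in 33.0% against 12.9% of cases and had a lower CpG ratio around the TSS (median observed over expected 0.354 against 0.736) than the 575 others. Their median signal was lower, at 99.5 against 134 RPKM, that is, counts-per-million (CPM) divided by the length of the interval in kilobases. For members of the 192 genes with GC-poor intervals only, the median GC content around the TSS was 47.9%.

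**Figure D2:**
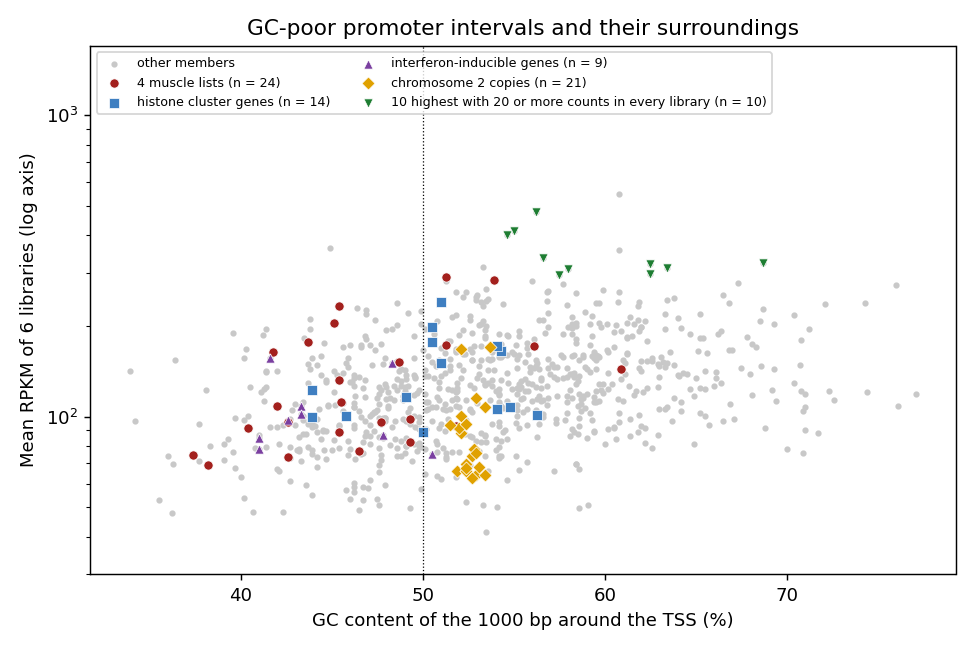
Mean RPKM of the 6 libraries (y axis, log scale) against the GC content of the 1000 bp around the TSS in percent (x axis), with 1 point per member and colours for gene groups. The 10 members with the highest signal among those with at least 20 counts in every library lie between 54.6% and 68.7%, while 18 of 24 members of muscle genes lie under 50%.

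In signal per length, the members lay between GC-rich promoters and distal GC-poor intervals. Median RPKM of the members was 120, 119 and 120 in the CTL libraries and 114, 124 and 121 in the H2A.Z dKO libraries. GC-rich promoters had 134, 134, 135, 140, 132 and 132 in the same order, and distal GC-poor intervals lay between 80.4 (replicate 1 of H2A.Z dKO) and 106 (replicate 2). The members were thus below GC-rich promoters and above distal GC-poor intervals in 6 of 6 libraries. The median of log2(RPKM + 1) was lower than in GC-rich promoters by a mean difference of -0.17 (exact sign-flip test over the 6 libraries, two-sided p = 0.03125, the smallest they allow) and higher than in distal GC-poor intervals by 0.32 (same test, p = 0.03125). Of the difference from GC-rich promoters, -0.01 was left among intervals under 100 bp wide (exact p = 0.71875) and -0.02 among intervals that did not overlap a TSS (exact p = 0.78125), whereas it was -0.44 among intervals that overlapped a TSS. These settings, and the comparison with distal GC-poor intervals, were added after the values had been seen. The difference from distal GC-poor intervals was 0.28 among intervals under 100 bp.

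Width and position separated the members among themselves. The 173 that overlapped a TSS had a median width of 207 bp and 104 RPKM, against 293 bp and 143 RPKM for GC-rich promoters that did so. The 518 upstream members had 59.5 bp and 128 RPKM. Members 300 bp or wider numbered 55 and had 159 RPKM, those of at least 100 bp but under 300 bp 97.3 RPKM, and the 547 under 100 bp (62.5%, against 22.8% of GC-rich promoters) 129 RPKM. The authors extended fragment ends before counting, so a narrow interval can hold ends from outside it. RPKM of very narrow intervals also rests on few counts. The highest of any member, 547 RPKM near Plekhg2, came from an interval 12 bp wide with as few as 15 counts in a library. For this reason the highest members are given among the 539 (61.6%) with at least 20 counts in every library, a minimum passed by 91.1% of GC-rich promoters.

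The 10 highest of these were all in the set of intervals that the authors' peak calls found in both groups. Cic, which codes for the capicua repressor, came first (chr7:26052859-26053441, 583 bp, overlapping the TSS), and its counts were 1735, 1324 and 1085 in CTL and 1430, 1321 and 1327 in H2A.Z dKO. This gave 502 ± 23.3 RPKM (SD, n = 3) in CTL and 456 ± 40.3 in H2A.Z dKO, a difference within the overlap of the libraries. Gpr108, a multi-pass membrane protein gene, had 1305, 986 and 778 counts against 935, 1007 and 1048, or 434 ± 9.13 and 395 ± 66.1 RPKM (SD, n = 3). Prcc, known from papillary renal cell carcinoma fusions, had 1308, 1014 and 768 against 1369, 964 and 994, or 402 ± 5.19 and 397 ± 32.8 RPKM. Gbf1, an exchange factor for ARF GTPases at the Golgi, had 350 ± 17.2 RPKM in CTL and 321 ± 25.8 in H2A.Z dKO (SD, n = 3), from 959, 706 and 590 against 791, 719 and 728 counts. The groups overlapped for all 4 of these. The others, from 324 to 296 RPKM, included Zdhhc5 (a palmitoyltransferase), Arid4a (a chromatin protein that binds the retinoblastoma protein), Egln2 (a prolyl hydroxylase of hypoxia-inducible factors), Ankrd54 and Nfatc2ip. Of the 10, 8 overlapped a TSS and 8 held CCAAT on either strand in the 200 bp around the midpoint, as in the Cic and Gpr108 sequences above.

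Short motifs differed in frequency between the classes. In the same 200 bp, on both strands, TATAAA occurred in 11.4% of members, 2.18% of GC-rich promoters, 13.1% of distal GC-poor intervals and 4.60% of all intervals. The MEF2 core, which can share letters with TATAAA, occurred in 5.37%, 1.60% and 7.09% of the 3 classes, and TGANTCA, the AP-1 letters, in 8.00%, 2.91% and 13.9%. In each of these the members lay between GC-rich promoters and distal GC-poor intervals. The GC box GGGCGG occurred in 9.94% of members and 61.5% of GC-rich promoters, the ETS letters CCGGAAG in 5.49% and 11.9%, and the NRF1 letters (GCGC, any base and TGCGC) in 1.26% and 7.60%. The rule set the base composition, on which the frequency of such letters depends, so these shares are descriptions.

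The shares of CCAAT and of ACTACAA, letters found in ZNF143 sites, were highest in the members among the classes compared. CCAAT occurred in 33.9% of members, 23.4% of GC-rich promoters, 26.02% of distal GC-poor intervals and 22.8% of all intervals. Without the chromosome 2 copies the share was 32.3%. Where the interval overlapped a TSS it was 53.8% of members (48.1% without the copies) and 29.3% of GC-rich promoters. ACTACAA occurred in 4.8% of members, 2.30% of GC-rich promoters and 1.95% of distal GC-poor intervals, and in 10.98% of members that overlapped a TSS. Outside the copies, members with the MEF2 core had a lower median signal (107 against 124 RPKM) in 6 of 6 libraries, as had those with CCGGAAG (110 against 123 RPKM). Members with GGGCGG had a higher one (131 against 122 RPKM) in 6 of 6, as had those with CCAAT (124 against 122 RPKM). Members with any of these letters also had a larger median width than those without them, and the part of width was not tested.

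TATAAA at the position of a TATA box was rare in both classes. Within 20 to 40 bases upstream of the start, 6 members had it (0.686%), against 142 GC-rich promoters (0.866%). Among intervals that overlapped a TSS the shares were 1.16% (2 of 173) and 0.876%, and among members of genes with GC-poor intervals only, 1.74% (4 of 230). The 6, of which 2 overlapped the start, belonged to Zfp36l1 (163 RPKM), an mRNA-decay factor of the tristetraprolin family, Serpinb1a (97.1 RPKM), an inhibitor of neutrophil proteases, Hist1h3a (89.1 RPKM), Lrrc14b (85.8 RPKM), Anxa1 (59.2 RPKM), annexin A1, and Asb5 (53.5 RPKM), an ankyrin-repeat gene expressed in muscle. Anxa1 had 12, 16 and 11 counts in CTL and 21, 19 and 18 in H2A.Z dKO, at most 3.46 CPM against at least 3.53 CPM, whereas Hist1h3a (111, 75 and 48 against 94, 64 and 91) and Zfp36l1 (96, 71 and 55 against 138, 63 and 75) overlapped.

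The share of genes with a member was larger in the muscle lists than over all genes, a description that was not tested. In 4 lists (contractile and sarcomeric genes, excitation and calcium handling, muscle energy metabolism, and myogenic and synaptic regulators), 19 of 107 genes with a promoter interval had a member (17.8%), against 8.63% of all such genes. Contractile genes accounted for most of these, with 11 of 37. Excitation and calcium genes had 3 of 22, energy genes 3 of 26 and regulators 2 of 22. Immediate early genes, such as Fos and its relatives, had none of 26. The 24 muscle members had a median of 45.5% GC around the TSS and 110 RPKM (range 69.0 to 291). In the 200 bp around the midpoint, TATAAA occurred in 7 of 24 (29.2%) and the MEF2 core in 7 of 24, and CCAAT in 2 of 24. The nested intervals of Ckmt2, which share DNA, are each counted for TATAAA and for the MEF2 core.

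For the gene lists, the highest members were taken without the minimum of 20 counts, which the 3 highest of contractile genes do not reach. These belonged to Ankrd23, a titin-binding ankyrin protein of the I-band, Ttn, the giant sarcomeric spring protein titin, and Nrap, an actin-binding protein of myofibril assembly. Ankrd23 had 37, 17 and 21 counts in CTL and 18, 30 and 18 in H2A.Z dKO (284 RPKM), in an interval 17 bp wide. Ttn had 21, 18 and 18 against 14, 15 and 21 counts in an interval with its midpoint at +657 from the start (232 RPKM) and 146, 65 and 63 against 80, 108 and 115 at +521. Nrap had 22, 7 and 11 against 18, 18 and 22 at +349 (205 RPKM), in an interval 16 bp wide. The groups overlapped in all of these. Myl1, a fast skeletal myosin light chain, had 97, 81 and 51 counts in CTL and 89, 95 and 108 in H2A.Z dKO (108 RPKM). Xirp2, an actin-binding protein of intercalated discs and myotendinous junctions, had 81, 52 and 59 against 46, 79 and 82 (69.0 RPKM). For Xirp2, both the lowest and the highest CPM came from H2A.Z dKO libraries.

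The energy, calcium and regulator genes also overlapped between the groups in 8 of the 10 members named here. Ckmt2, the sarcomeric mitochondrial creatine kinase, had nested intervals, so that their counts are largely shared: 85, 48 and 40 counts in CTL and 56, 56 and 53 in H2A.Z dKO in the inner one (291 RPKM), and 105, 67 and 49 against 82, 78 and 74 in the outer one (173 RPKM). Cd36, the fatty acid transporter, had 122, 76 and 67 against 96, 83 and 87 (74.8 RPKM). Casq1, the calcium-binding protein of the sarcoplasmic reticulum in fast fibres, had 71, 57 and 47 against 54, 49 and 70 (172 RPKM). Trdn, triadin of the same calcium release complex, had 54, 28 and 43 against 47, 38 and 37 (96.2 RPKM). Myf6, the myogenic factor MRF4, had 97, 50 and 43 against 74, 72 and 72 in the interval over its start, whose sequence is above, and 57, 41 and 30 against 42, 62 and 51 farther upstream. Fbxo40, a muscle-specific F-box gene, had 58, 21 and 24 against 31, 36 and 30 (152 RPKM). CPM overlapped between the groups in each of these.

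The remaining 2, Asph and Ppargc1a, were higher in H2A.Z dKO without overlap. The interval of Asph, whose locus also codes for the calcium-handling proteins junctin and junctate, lies inside the gene (chr4:9570252-9570342, 400 bp past the start) and had 46, 22 and 16 counts in CTL and 58, 54 and 51 in H2A.Z dKO. edgeR's quasi-likelihood test put its log2 fold change at 0.87 (SE 0.24, 95% interval 0.37 to 1.37), with an unadjusted p of 0.0017 and an adjusted p of 0.972. Ppargc1a codes for PGC-1 alpha, a coactivator of mitochondrial genes, and its interval (chr5:51944215-51944278, 913 bp past the start) had 31, 12 and 13 counts against 39, 27 and 28, a log2 fold change of 0.64 (SE 0.27, edgeR unadjusted p = 0.0288). For Ppargc1a the p was 0.0834 with DESeq2 and, in edgeR, 0.151 without CTL replicate 2 (log2 fold change 0.43), 0.0625 without CTL replicate 3 and 0.0799 without H2A.Z dKO replicate 1. Over the 24 members of the 4 lists, 13 had higher and 11 lower fitted values and the median log2 fold change was 0.04. The 4 whose levels did not overlap (Asph, Ppargc1a, Klhl31 and Myot, an actin-binding Z-disc protein) were all higher in H2A.Z dKO, while 10.8% of all intervals did not overlap and 5.22% were higher in that way. The summed level of the 24 was 247, 192 and 229 CPM in CTL and 206, 271 and 237 in H2A.Z dKO, so that the sum overlapped. Members of fibroblast and matrix genes (4, near Col3a1 and Fap) summed to 25.9, 40.9 and 31.7 CPM in CTL and 37.5, 36.8 and 38.4 in H2A.Z dKO, and their part in these values was not tested. The smaller Col3a1 interval lies inside the larger, so counts are shared in this sum, as those of Ckmt2 are in the sum of the 24. Tek was the only endothelial gene with a member (6, 15 and 13 counts against 20, 11 and 11). A further 11 muscle genes, Smyd2 and Asb5 among them, were picked after their p-values had been seen. Their 15 members, 13 with higher and 2 with lower fitted values, are outside the tally, and nothing is read from their direction. No smooth muscle, satellite cell, Schwann cell or leukocyte marker had one.

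**Figure D3:**
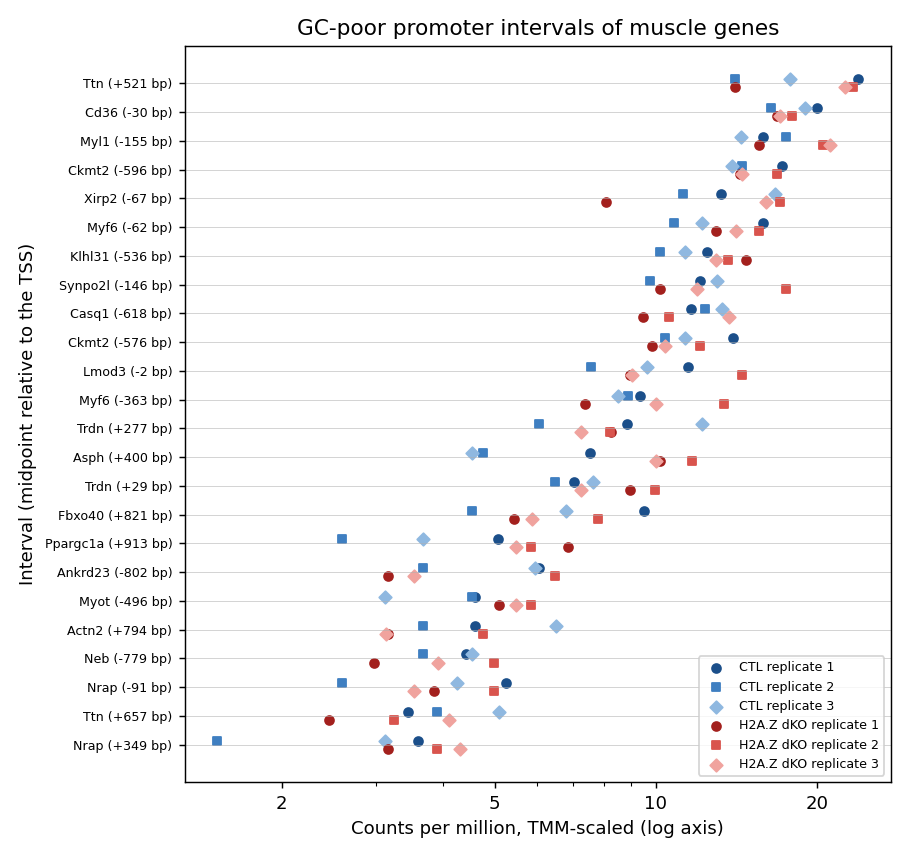
Scaled CPM in each library (x axis, log scale) for the 24 members of muscle genes (y axis, with the midpoint relative to the TSS in bp), CTL in blue and H2A.Z dKO in red. Red and blue points intermingle in 20 rows, and the red points lie to the right of the blue ones for Asph, Ppargc1a, Klhl31 and Myot.

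Other gene families were grouped by symbol after the members had been seen, so their shares are descriptions. Histone cluster genes, which are multicopy and expressed mostly in dividing cells, had members at 10 of 15 genes with a promoter interval (66.7%), 7 of them with GC-poor intervals only, and CCAAT in 9 of 14 members. The GC content of the 1000 bp around their start sites had a median of 50.8% and was under 50% for 4 of the 14. A list of interferon-inducible genes had members at 7 of 12 (58.3%), all named Ifi or Gbp, with a median GC content of 43.3% around the TSS. The list leaves out Ifit2 and Ifit3, which also had members. Genes named Zfp, mostly zinc-finger repressors, had 39 of 244 (15.98%), ribosomal protein genes 9 of 62 (14.5%) and genes of the mitochondrial ribosome 5 of 49 (10.2%). A list of respiratory chain and ATP synthase genes had 3 of 48 (6.25%). That list leaves out Ndufv2, Atp5g3 and Atp5l, which also had members, so its share is not that of the whole family. Of the 14 histone members, 11 had lower and 3 higher fitted values in H2A.Z dKO, with a median log2 fold change of -0.13, and over all intervals 18883 were lower and 20885 higher. One of the 14 had an unadjusted p under 0.05, against 4.95% of all intervals, and it was Hist1h2bb, a histone H2B gene (chr13:23838292-23838603): 234, 196 and 124 counts in CTL against 113, 142 and 179, a log2 fold change of -0.44 (SE 0.18, 95% interval -0.82 to -0.07, edgeR unadjusted p = 0.023). Without replicate 1 of H2A.Z dKO it was -0.23 (edgeR unadjusted p = 0.11), and the p also rose above 0.05 without CTL replicate 1 (0.0524) or 2 (0.0943). The lowest CPM was that of replicate 1 of H2A.Z dKO, and the groups all but met, at 35.12 CPM in the lowest CTL library and 35.10 in the highest H2A.Z dKO library. The interferon-inducible members of the list above had 8 lower and 1 higher fitted value, none with an unadjusted p under 0.05.

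A block of chromosome 2 (chr2:174967472-177813312) held 31 intervals that shared at least 31 consecutive bases, and 21 of them were members, near 20 genes. In 90 aligned bases, which 27 of the 31 held, identity between pairs of intervals had a median of 97.8% and a minimum of 85.6%, and the 21 members had 7 distinct sequences. Intervals of Gm14436 overlap almost fully, so that this locus is counted 2 times among the 21. Of the 21, 19 overlapped a TSS. Their signal ran from 62.8 to 171 RPKM, with a median of 75.5, and 2 of the 21 were above the median of all members. Reads from such copies may align equally well to several of them, and how such reads were treated is not given in the sources used here, so single copies are uncertain and the sum is given. The copies summed to 2115, 1695 and 1266 counts in CTL and 1811, 1687 and 1784 in H2A.Z dKO, or 357 ± 10.2 and 344 ± 24.2 CPM (SD, n = 3, two-sided exact permutation test p = 0.6). With the wider interval of Gm14436 only, the sums were 347 ± 12.0 and 335 ± 25.3 CPM (SD, n = 3, exact p = 0.6). A 31-base sequence shared with an interval over 1 kb away was found in 91 members (10.4%), against 7.65% of distal GC-poor intervals and 1.99% of GC-rich promoters.

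Between H2A.Z dKO and CTL, no member passed an adjusted p of 0.05 in edgeR, as no interval of the table did (0.0%). The smallest adjusted p of a member was 0.855. At an unadjusted p under 0.05, edgeR had 56 members (6.40%), 23 higher and 33 lower in H2A.Z dKO, against 4.95% of all intervals (2.64% higher, 2.31% lower), 3.63% of GC-rich promoters and 6.95% of distal GC-poor intervals. DESeq2 had 18 (2.06%, with 6 higher and 12 lower), against 1.90% of all intervals (421 higher, 335 lower). Levels did not overlap between the groups in 121 members (13.8%), 57 higher and 64 lower, against 10.8% of all intervals (5.22% higher, 5.63% lower). The unadjusted share of members against that of all intervals changed order with the libraries used: it was 5.60% against 7.95% without replicate 1 of H2A.Z dKO (9.99% of distal GC-poor intervals), 4.69% against 5.60% without replicate 3, and 3.34% against 3.50% with at least 20 counts per library. The median log2 fold change was -0.02 in the members and 0.01 over all intervals.

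The direction of a member differed with the peak set it came from. The intervals are read as the union of peaks that the authors called in each group. The study's methods give a larger number for such a union than the 39768 intervals counted here, and do not explain the difference. The set column that comes with the counts is not defined there and is read here as the group or groups whose peaks gave the interval. By this reading, 261 members (29.8%) were in both sets, 441 (50.4%) in the H2A.Z dKO set only and 173 (19.8%) in the CTL set only, against 53.9%, 30.3% and 15.8% of GC-rich promoters. All 23 higher members were in the H2A.Z dKO set only. Of the 33 lower members, 21 were in the CTL set only, 8 in both and 4 in the H2A.Z dKO set. The whole series was split alike, with 889 of 1051 higher intervals in the H2A.Z dKO set only and 553 of 919 lower ones in the CTL set only. The median log2 fold change was 0.09, -0.18 and -0.07 for the H2A.Z dKO, CTL and shared sets. Because the peaks were called on the libraries that were then counted, these directions are not independent of how the intervals were chosen, and the counts in each direction cannot be told apart from that choice. In the shared set, 174 members had lower and 87 higher fitted values, and of all shared intervals in the deposited counts, lower values were fitted for 8651 and higher ones for 6725.

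Apart from Asph, the members with the smallest p in each direction had few counts. Interval starts were read as counted from 0. If they count from 1, each interval begins 1 base earlier and is 1 bp wider, which matters most for the RPKM of the narrowest. Zfp74, a zinc-finger gene, had 3, 1 and 3 counts in CTL and 11, 11 and 10 in H2A.Z dKO in an interval of 9 bp (chr7:30739985-30739993), a log2 fold change of 2.02 (SE 0.46, edgeR unadjusted p = 0.000253, adjusted p = 0.855). Smyd2, a lysine methyltransferase, had 15, 6 and 7 counts against 22, 19 and 19 (chr1:191746837-191746866, log2 fold change 0.98, SE 0.31, edgeR unadjusted p = 0.00448). With Asph above, these are the 3 smallest in the upward direction, and all came from the H2A.Z dKO set.

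In the other direction, Mrpl3, a protein of the large mitochondrial ribosomal subunit, had 22, 20 and 19 counts in CTL and 14, 9 and 10 in H2A.Z dKO, a log2 fold change of -1.004 (SE 0.30, edgeR unadjusted p = 0.0028), in the 66 bp printed above. Lgals8, the galectin-8 gene, had 13, 14 and 11 against 8, 4 and 6 (chr13:12554398-12554426, log2 fold change -1.18, SE 0.36, edgeR unadjusted p = 0.00363). Rbm4b, an RNA-binding protein gene, had 33, 24 and 23 against 20, 17 and 11 (chr19:4755991-4756017, log2 fold change -0.85, SE 0.28, edgeR unadjusted p = 0.00554). All 3 came from the CTL set, had adjusted p = 0.972 in edgeR and did not overlap between the groups.

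**Figure D4:**
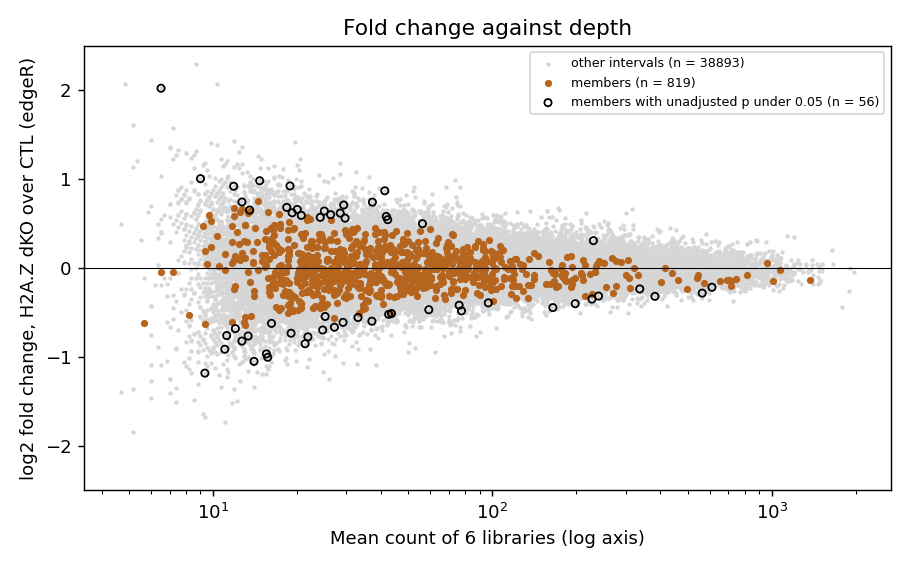
Log2 fold change of H2A.Z dKO over CTL from edgeR (y axis) against the mean count of the 6 libraries (x axis, log scale) for all intervals in grey, members in brown and the 56 members with an unadjusted p under 0.05 as open circles. Open circles lie mostly at low counts, where the scatter of all intervals is widest.

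Depth limited what could be seen in single members. Their median mean count was 39, against 124 for GC-rich promoters, and the 95% interval of a member's log2 fold change extended by a median of 0.50 on each side (0.37 for GC-rich promoters). That interval stayed within 2-fold in both directions for 768 members (87.8%), against 97.0% of GC-rich promoters.

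As a class, the members did not differ between the groups beyond the spread of the libraries. They took 1.30%, 1.30% and 1.30% of counts in CTL and 1.17%, 1.32% and 1.28% in H2A.Z dKO, or 1.30% ± 0.0048 against 1.26% ± 0.0797 (SD, n = 3, two-sided exact permutation test p = 0.6, where 3 against 3 libraries cannot go below 0.1). The low value was that of replicate 1 of H2A.Z dKO. The level of members relative to GC-rich promoters (median log2 CPM after each interval's mean over the 6 libraries was subtracted) was 0.02, 0.02 and 0.02 in CTL and -0.14, 0.08 and 0.04 in H2A.Z dKO, a difference of -0.02 between the group means (exact permutation test, two-sided p = 1.0). The CTL libraries were close to each other, and the H2A.Z dKO libraries lay on both sides of them. Without replicate 1 of H2A.Z dKO, the difference changed sign to 0.05 (exact p = 0.1, the smallest that 3 against 2 libraries allow), and that of the share of counts to 0.0019 percentage points.

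Among promoter intervals, that replicate lay outside the range of the others at 40% to 50% GC and from 60% upward, and within it under 40% and at 50% to 60%. Over promoter intervals, its median centred log2 CPM rose from -0.07 at 40% to 45% GC to 0.17 at 70% or more. Replicate 2 of H2A.Z dKO went from 0.06 to -0.06 over the same range, and the CTL libraries stayed between -0.01 and 0.05. At an unadjusted p under 0.05, the fit without this library had 24 lower members (2.74%), against 33 (3.77%) with it. Lower intervals of the whole series went from 919 (2.31%) to 1475 (3.71%), those of GC-rich promoters from 257 to 790 and those of distal GC-poor intervals from 204 (3.59%) to 132 (2.32%). Higher members went from 23 (2.63%) to 25 (2.86%) and higher intervals of the whole series from 1051 (2.64%) to 1688 (4.24%). Higher GC-rich promoters went from 339 to 258 and higher distal GC-poor intervals from 191 (3.36%) to 436 (7.67%).

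**Figure D5:**
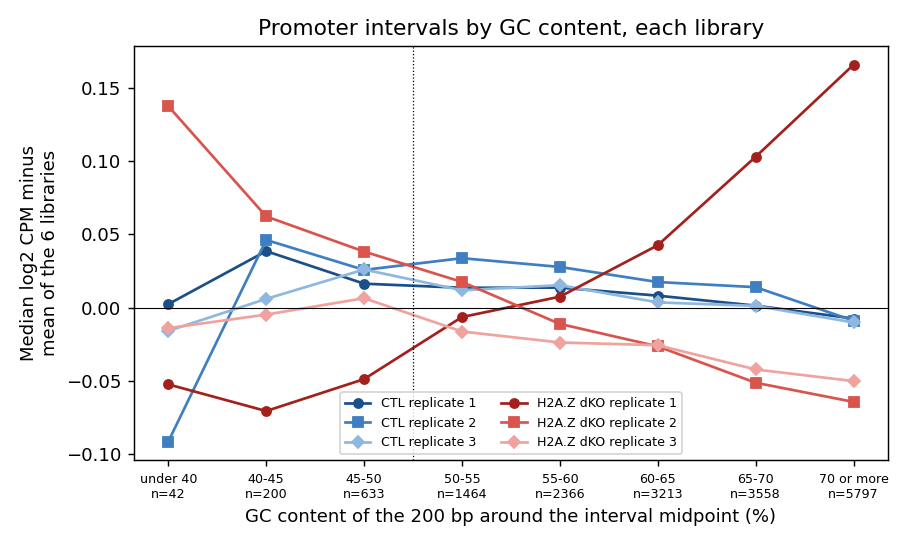
Median log2 CPM of promoter intervals after subtraction of each interval's mean over the 6 libraries (y axis) by GC content of the 200 bp around the midpoint (x axis, percent, with the number of intervals), 1 line per library. The members are left of the dotted line, where replicate 1 of H2A.Z dKO is low (-0.07 at 40% to 45%), and it is highest at 70% or more (0.17).

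Among the 33 members with lower counts at an unadjusted p under 0.05, 20 held CCAAT, and among the 23 higher members 5 did, against 297 of all 875 (33.9%). This pattern was noticed after the values had been seen. Of the members with CCAAT, 6.73% were lower by this measure, against 2.25% of the others. Over all intervals, 279 of 919 lower and 167 of 1051 higher ones held CCAAT, and 3.08% of those with CCAAT were lower, against 2.08% of the others. In GC-rich promoters, 106 of 257 lower and 55 of 339 higher intervals held CCAAT, and in distal GC-poor intervals 46 of 204 and 47 of 191. Without replicate 1 of H2A.Z dKO, GC-rich promoters had 227 of 790 lower and 56 of 258 higher, and the members 13 of 24 and 7 of 25. The median log2 fold change of members was -0.05 with CCAAT and -0.00 without it. Taken per library, the median centred log2 CPM of members with CCAAT minus those without it was 0.03, 0.05 and -0.00 in CTL and -0.06, -0.03 and 0.00 in H2A.Z dKO. The groups overlapped and differed by -0.06 (two-sided exact permutation test, p = 0.2). DESeq2 had 8 of 12 lower members with CCAAT, and with each library left out in turn the counts ran from 10 of 21 (without CTL replicate 2) to 18 of 33 (without H2A.Z dKO replicate 2) and 18 of 27 (without H2A.Z dKO replicate 3).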

How the data were processed

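ATAC-seq counts per interval were used as deposited by the authors. Per the labels and the study's methods, reads were trimmed (Trimmomatic), aligned to mm9 (Bowtie2), filtered for pairing and duplicates (SAMtools, Picard), and peaks were called with MACS2. Peaks shared by the 3 replicates of a group were merged and the groups' regions were joined (bedtools). Fragment ends, Tn5-shifted and then extended, were counted in them, so RPKM is not strictly cuts per length. The tool names are those of the submitters' processing notes. Labels name Tibialis Anterior nuclei, and the methods name hind limb muscle. The authors' own comparison columns (group means, log2 fold changes, errors, p-values from DESeq2) were not used. The deposited set column was read as the group whose peaks an interval came from, and interval starts as counted from 0, neither of which the file states.

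Start sites of promoters were those of protein-coding transcripts in GENCODE vM1 (mm9), autosomes only. For distal intervals the starts of all its transcripts were used. For the 2 intervals that run past a chromosome end, GC content was taken from the bases inside the chromosome. All 39768 intervals were fitted with edgeR 4.0.16 (R 4.3.3, TMM, robust quasi-likelihood test) and p-values were adjusted by Benjamini-Hochberg over all of them. The common biological coefficient of variation was 0.126 and TMM factors ran from 0.971 to 1.02. RPKM used interval width and library total, and log2 CPM a prior count of 0.5. Single values per library were compared by exact permutation or sign-flip tests. Scripts used Python 3.11.15 with pandas 2.3.3, pysam 0.24.0, scipy 1.17.1 and matplotlib 3.10.9, and the fitting code was tested on simulated data.

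The members and gene lists were chosen with earlier results of these data known. Intervals named in the text are the 10 with the highest mean RPKM among those that reached 20 counts in all libraries, the 3 with the smallest edgeR p in each direction, from each list of muscle, immediate early and cell type marker genes the 3 highest and any with an unadjusted p under 0.05, those with TATAAA 20 to 40 bases upstream, and the pair at the GC threshold. One of these intervals is not reported here by name. Other genes named were chosen after their values were seen. Alternatives were DESeq2 1.42.0, other scalings, a GC offset, a count minimum, the replicate number as a block, other GC, distance and start-site rules, and leaving out each library.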

Additional observations from a re-analysis of the deposited data

How the results depend on the processing

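No member passed an adjusted p of 0.05 in edgeR or DESeq2 under any alternative. The 56 members at an unadjusted p under 0.05 (6.40%, against 4.95% of all intervals) became 18 with DESeq2 1.42.0 (2.06% against 1.90%), 18 of 539 with at least 20 counts in every library (3.34% against 3.50%), 16 of 242 with a GC content under 45% (6.61% against 4.95%), and 37 to 52 with a library left out (37 without CTL replicate 3, 4.23% against 3.18%). Without dKO replicate 1 there were 49 (5.60% against 7.95%). The 121 members whose groups did not overlap became 58 of 539 with the count minimum (10.8%, against 9.46% of all intervals that reach it). Fewer members were tested under the count minimum and the GC rule, and for the other settings the cause was not tested. The difference between GC-poor and GC-rich promoters in relative level, dKO minus CTL, ran from -0.0651 to 0.0478 with a library left out, and that in the share of counts from -0.0749 to 0.0019 percentage points. Both changed sign without H2A.Z dKO replicate 1 (0.0478 and 0.0019). The log2 RPKM difference from GC-rich promoters, -0.168, was -0.0604 (exact sign-flip p = 0.09375) under 45% GC, -0.0137 under 100 bp, -0.0214 off the TSS, and -0.185 to -0.141 with a library left out (exact p = 0.0625, the smallest 5 libraries allow). That from distal GC-poor intervals ran from 0.288 to 0.341 in the same way (exact p = 0.0625). Of 195 alternatives, 173 were labelled unchanged, 20 weaker and 2 reversed. Counts were labelled unchanged when close in size, whatever their split by direction. Median fold changes were labelled unchanged when they moved by less than the SD between libraries. Only for the other differences and for single members were sign and side of the threshold compared. For single members the threshold is an adjusted p of 0.05, which none passed. Log2 fold changes of the 8 members tested singly kept their sign throughout. That of Ppargc1a ran from 0.43 to 0.98 (edgeR or DESeq2 unadjusted p 0.00688 to 0.151) and that of Hist1h2bb from -0.64 to -0.23 (p 0.00334 to 0.11).

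Same-numbered libraries did not deviate together (correlations -0.0988, -0.0537 and -0.0331). Other pairs of a CTL and an H2A.Z dKO library ran from -0.0527 to 0.0913. With correlations this small for every pair, they cannot decide whether same-numbered libraries were prepared together. With the replicate number as a block, edgeR gave 50 members at an unadjusted p under 0.05 (21 higher, 29 lower, 5.71% against 4.42% of all intervals), and 59 with a GC offset as well (6.74% against 5.27%). Most members are narrow and shallow, so changes in single members smaller than their intervals were not detectable at this depth.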
